A study of Mus musculus with 14 samples.

Results

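A set of 10 genes of the prostanoid pathway was followed in sorted mouse LSECs, the liver sinusoidal endothelial cells whose fenestrated sheet forms the capillary wall of the liver. They cover the release of arachidonate (Pla2g4a), both cyclooxygenases (Ptgs1, Ptgs2), the terminal synthases (Ptgis, Tbxas1, Ptges, Ptges3), receptors (Ptgir, Ptger4) and degradation (Hpgd). They were chosen by name and function with the measured age difference of the series already known, above all the counts of Ptgis in aged against young libraries, so the age values below are a description of these libraries. Of the 10 genes, 9 were matched to 1 of the 23930 amplicon targets, Ptges3 was not matched, and 6 had enough reads to be among the 14168 targets tested (Ptgs1, Ptgs2, Ptgis, Tbxas1, Ptger4, Hpgd). Pla2g4a, Ptges and Ptgir fell under the filter on low counts.

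All libraries came from LSECs sorted from the livers of wild-type female mice of strain C57BL/6J, gated as CD45-dim, STAB2-high and CD146-high. There were 7 libraries from young mice (8 to 10 weeks) and 7 from aged mice (10 to 11 months), and no library had another genotype or an agent. The first of 2 experiments gave 3 libraries of each age and the second gave 4 of each. Names give age, then experiment and replicate: aged 1.3 is the aged library with replicate number 3 in experiment 1. Whether a library stands for 1 mouse is not stated in the labels, and the errors below therefore measure spread between libraries, some of which may be technical. Aged here means middle age for a laboratory mouse, and 1 sex was studied.

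Prostanoids are short-lived lipid signals made from arachidonate, which phospholipase A2 enzymes cut from membrane lipids. Cyclooxygenases turn arachidonate into the unstable prostaglandin H2, and the terminal synthase present in the cell then sets the product: prostacyclin, thromboxane, prostaglandin E2 or prostaglandin D2. Endothelium is known for prostacyclin, which relaxes vessels and restrains platelets through the receptor encoded by Ptgir, while thromboxane from platelets and macrophages constricts vessels and activates platelets.

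Each library held 6710403 to 13977361 reads on genes. Levels are CPM: a target's reads divided by the library's TMM-scaled total and put on a common library size. The panel reads 1 amplicon per gene without molecular identifiers, so CPM does not grow with transcript length, but amplicons differ in yield and an order between genes is an order of reads, not of molecules. LSEC markers (Stab1, Stab2, Lyve1 and 7 more) summed to 19355 to 32951 CPM in aged libraries (median 26570) and 22278 to 33847 CPM in young ones (median 28776). None of the 10 differed with age at an adjusted p under 0.05, where 0.162% of all targets did. Of the 10, 2 were above 0 in log2 difference, aged over young, with a median of −0.10. Targets of odorant, vomeronasal and taste receptors, which should be silent in LSECs, took 1.20 to 3.18% of reads in the libraries of experiment 1. In experiment 2 this share was 0.146 to 2.92%, with young 2.2 and aged 2.4 above the others. Fewer cells of a type and less RNA per cell cannot be told apart in such bulk samples.

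Reads were concentrated on 2 of the 9 matched genes. Over all libraries the mean was 359 CPM for Ptgs1 and 281 CPM for Hpgd, then 8.47 for Ptgis, 3.55 for Ptger4, 2.88 for Tbxas1, 1.86 for Ptgs2, 1.06 for Ptgir, 0.943 for Pla2g4a and 0.0606 for Ptges. In the 14 libraries Ptgs1 covered 262 to 547 CPM and Hpgd 112 to 454 CPM, so these 2 neighbours overlapped, and both lay above every other gene of the set in each library. The next 6 genes overlapped one another in range. Among the 8 genes with reads in every library the spread was widest for Ptgis, whose highest library had 77.0 times its lowest, against 2.09 times for Ptgs1.

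**Figure D1:**
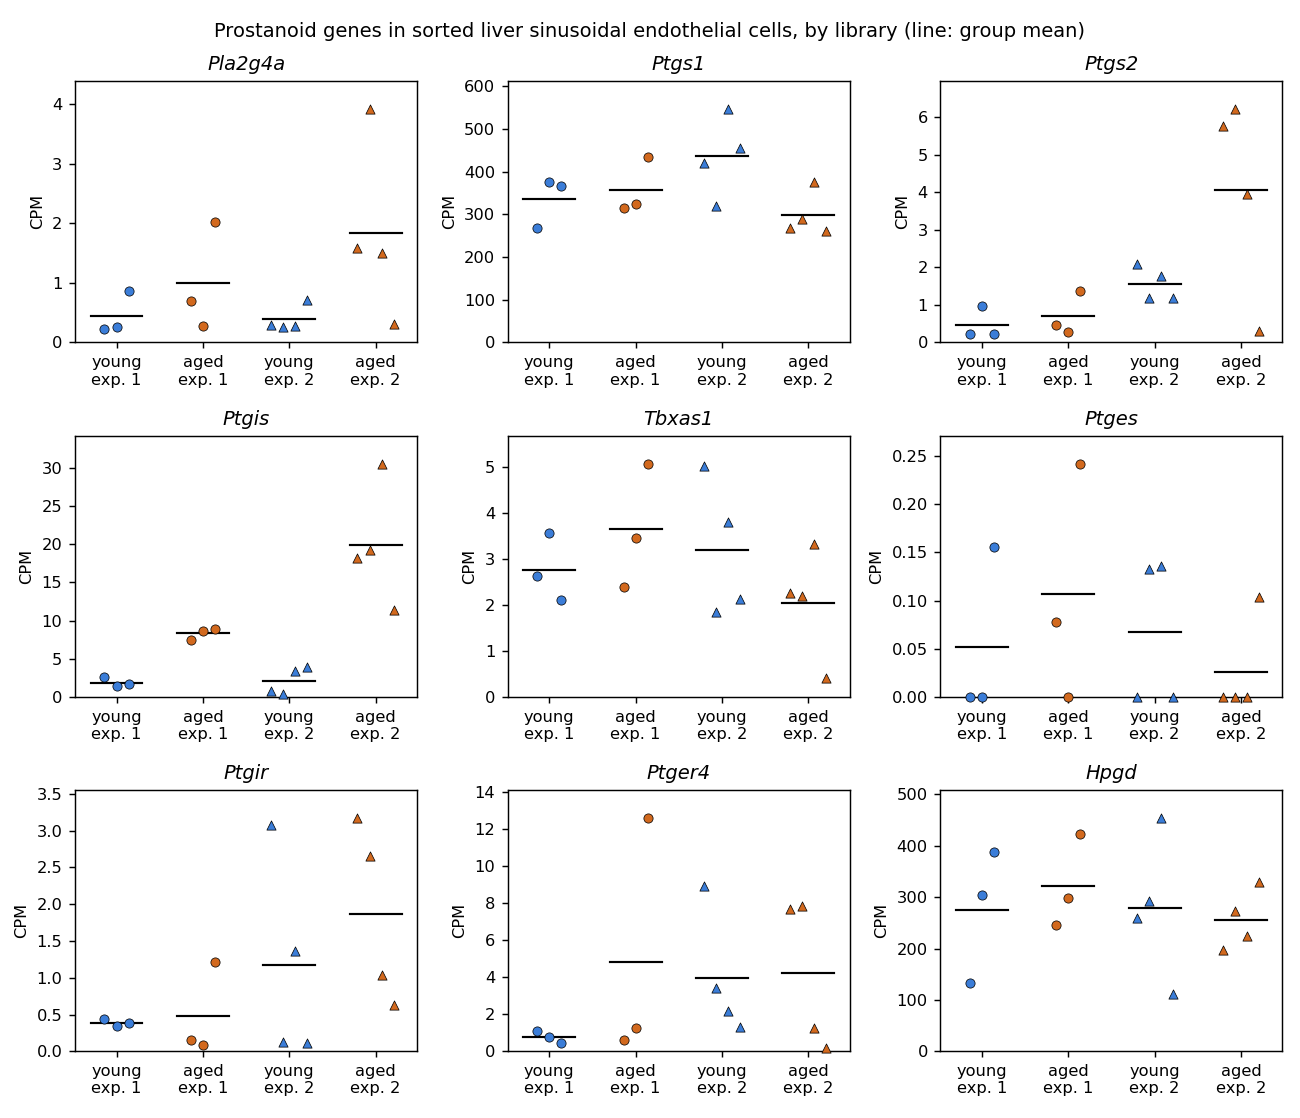
CPM (vertical axis, linear from 0) of the 9 matched prostanoid genes in each of the 14 libraries, by age and experiment; each point is a library and each line a group mean. Every aged library lies above every young library for Ptgis, while for the other 8 genes the ages overlap.

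Pla2g4a, the gene of the set for arachidonate release, was read at the limit of the assay. It (NM_001305632.1) encodes cytosolic phospholipase A2, the enzyme that frees arachidonate for the cyclooxygenases. The target had 2 to 34 reads a library, with 0.274 to 3.92 CPM in aged libraries (median 1.51) and 0.220 to 0.856 CPM in young ones (median 0.272). The ages overlapped, and 8 of 14 libraries had more than 3 reads. In a fit without the filter its log2 difference, aged over young, was 1.71 (SE 0.616, edgeR adjusted p = 0.632). The aged libraries held 107 reads on it in all and the young ones 31.

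The cyclooxygenase pair was almost entirely Ptgs1. Ptgs1 (NM_008969.4) encodes COX-1, the constitutive isoform, and Ptgs2 (NM_011198.4) encodes COX-2, the isoform known for rapid induction by inflammatory signals. Of the reads on both targets, Ptgs1 took 97.9 to 99.9% in aged libraries and 99.5 to 99.9% in young ones. Because these isoforms make the same product and differ widely in reads, the 250 bases before each gene's start are shown, from RefSeq on build GRCm38.p6 (chr2:36230176-36230425, + strand, for Ptgs1 and chr1:150099781-150100030, + strand, for Ptgs2), 5′ to 3′, with capitals for a match to a searched motif:
Ptgs1: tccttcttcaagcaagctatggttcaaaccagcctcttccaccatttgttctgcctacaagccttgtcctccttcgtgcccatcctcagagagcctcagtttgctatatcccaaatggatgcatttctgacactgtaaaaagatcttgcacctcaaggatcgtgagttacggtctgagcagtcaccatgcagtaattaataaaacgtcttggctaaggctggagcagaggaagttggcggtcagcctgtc
Ptgs2: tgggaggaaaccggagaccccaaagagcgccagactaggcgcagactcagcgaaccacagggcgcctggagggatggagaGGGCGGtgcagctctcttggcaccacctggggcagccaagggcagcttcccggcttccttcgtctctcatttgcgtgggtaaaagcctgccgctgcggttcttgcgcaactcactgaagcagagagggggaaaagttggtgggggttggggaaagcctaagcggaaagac
Of the 6 motifs searched on both strands, the Ptgs2 stretch held 1 and the Ptgs1 stretch none. The match is the GC box GGGCGG, which 32.7% of 32851 promoters of this length hold. The ETS core CGGAAG, a letter string bound by the ETS family named in the series title, is held by 13.6% of these promoters. The E-box CACGTG is held by 6.02% of them. The TATA box TATAAA is held by 12.4% of them. The cAMP response element TGACGTCA is held by 1.55%, and the NF-kappaB site, searched as 1 fixed string, by 0.14%. GC content was 61.6% for Ptgs2 and 48% for Ptgs1, against a median of 52.4% over all promoters. A match describes letters and is no evidence of a bound site.

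Ptgs1 was read deeply, with 2376 to 5608 reads a library. In experiment 1 the aged libraries had 315, 325 and 434 CPM and the young ones 269, 375 and 367 CPM. In experiment 2 the aged libraries had 269, 290, 376 and 262 CPM and the young ones 421, 320, 547 and 456 CPM. The ages overlapped in both experiments, and 1 of 7 aged libraries lay above the young mean of its experiment on the log2 scale, the sense in which that mean is used below. Over both experiments the log2 difference was −0.27 (SE 0.163, 95% interval −0.62 to 0.08). It was 0.09 (SE 0.219) in experiment 1 and −0.54 (SE 0.190) in experiment 2. Whether the age difference itself differed between experiments was not part of how the genes were chosen and was tested over all targets: for Ptgs1 the difference was −0.63 (SE 0.290, 95% interval −1.26 to −0.00), with an edgeR adjusted p of 1. At that adjusted threshold 0 of 6 prostanoid genes and 0% of all tested targets differed. Without adjustment 1 of the 6 (Ptgs1) and 2.18% of all targets had p under 0.05, and DESeq2 and limma-voom also called none of the 6.

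Ptgs2 was higher in experiment 2 than in experiment 1. It had 0.465, 0.274 and 1.37 CPM in the aged and 0.220, 0.959 and 0.234 CPM in the young libraries of experiment 1. In experiment 2 it had 5.78, 6.22, 3.97 and 0.312 CPM in the aged and 2.10, 1.19, 1.77 and 1.19 CPM in the young libraries. Aged 2.4 (3 reads), young 2.2 and young 2.4 lay within the range of experiment 1, and the other 5 libraries of experiment 2 lay above it. With age as a term Ptgs2 was 4.39-fold higher in experiment 2, from a mean of 0.587 ± 0.475 CPM (SD, n = 6) to 2.82 ± 2.23 CPM (SD, n = 8; log2 difference 2.13, SE 0.613, edgeR adjusted p = 0.0489). It was the 1 gene of the 6 tested that was called in this contrast, in which 7.79% of all targets were called, 6.99% higher and 0.798% lower, and the median over all targets was 0.12. The call is marginal: with 1 library left out at a time the log2 difference stayed between 1.90 and 2.59, the adjusted p ran from 0.0129 to 0.136, and it passed in 3 of 14 runs (without young 1.2, young 2.2 or aged 2.4). Experiment stands for all that differed between the collections, and these cannot be told apart; the share of receptor-target reads differed too, and with a term for it the log2 difference was 1.184 (SE 0.686, adjusted p = 0.380). The age difference of Ptgs2 was 1.07 (SE 0.576, 95% interval −0.17 to 2.31), with 5 of 7 aged libraries above the young mean.

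Prostacyclin synthase was the gene of the set that separated the ages. Ptgis (NM_008968.3) encodes the enzyme that turns prostaglandin H2 into prostacyclin. In experiment 1 the aged libraries had 7.51, 8.58 and 8.88 CPM and the young ones 2.56, 1.39 and 1.71 CPM. In experiment 2 the aged libraries had 18.2, 19.2, 30.6 and 11.4 CPM and the young ones 0.825, 0.397, 3.40 and 3.93 CPM. The lowest aged library, aged 1.1, thus lay above the highest young one, young 2.4. In raw reads the aged libraries ran from 94 to 385 and summed to 1123, while the young ones ran from 3 to 35 and summed to 145. The means were 14.9 ± 8.35 CPM aged and 2.03 ± 1.32 CPM young (SD, n = 7 each), and the fold fitted by edgeR with experiment as a term was 6.73 (95% interval 3.35 to 13.5; log2 difference 2.75, SE 0.469). Ptgis was the 1 gene of the 6 past an edgeR adjusted p of 0.05 in this contrast, where 0.162% of all targets passed (0.0776% higher, 0.0847% lower), and the 1 gene of these 6 without overlap between ages, where 0.233% of tested targets had none. Since this contrast brought the genes forward, nothing is read from either count.

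The experiments gave Ptgis differences of unequal size. On the log2 scale it was higher in aged libraries by 2.13 (SE 0.681) in experiment 1 and by 3.22 (SE 0.617) in experiment 2. Both came from a fit of all 14 libraries, and neither passed in edgeR after adjustment over all targets. In that fit 0% of targets were called in experiment 1 and 0.00706% in experiment 2. DESeq2, also fitted to all 14 libraries, called Ptgis in experiment 2. The difference between these effects was 1.09 on the log2 scale (SE 0.877, 95% interval −0.81 to 2.98, edgeR adjusted p = 1), so the interval holds both an equal and a several-fold larger effect. Aged libraries of experiment 2 averaged 19.8 ± 7.95 CPM (SD, n = 4) and those of experiment 1 averaged 8.32 ± 0.719 CPM (SD, n = 3), while the young averaged 2.14 ± 1.78 and 1.89 ± 0.603 CPM. With 1 library left out at a time the pooled log2 difference stayed between 2.53 and 2.94, but the adjusted p ran from 0.0259 to 0.0936 and was under 0.05 only without young 2.1, young 2.2 or aged 2.4. Leaving out any 1 of the other 11 libraries ended the call.

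**Figure D2:**
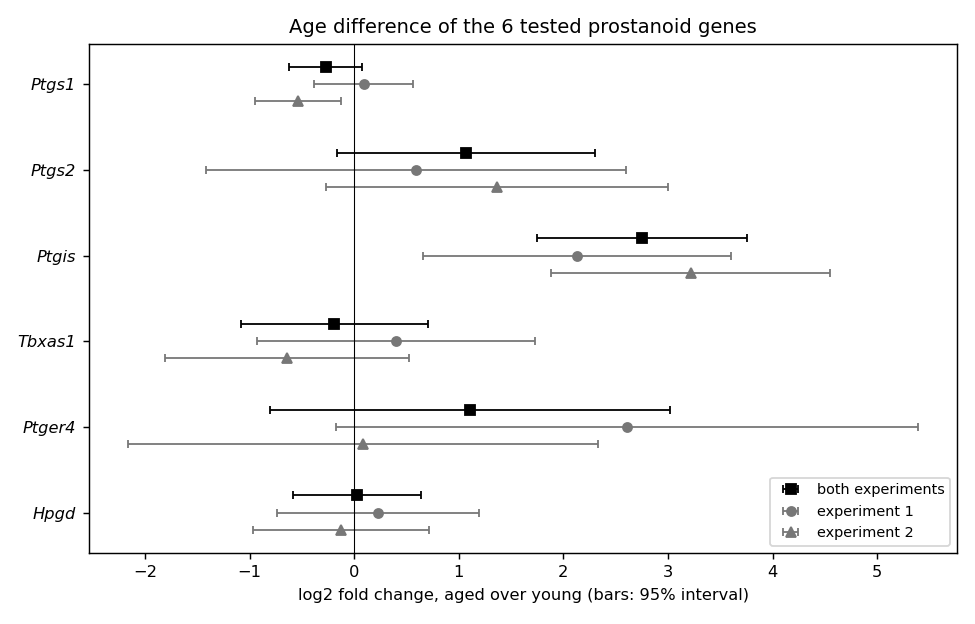
Log2 fold change, aged over young (horizontal axis), of the 6 tested prostanoid genes over both experiments and within each; points are edgeR estimates and bars 95% intervals. The 3 intervals of Ptgis lie above 0, and the pooled intervals of the other 5 genes include 0.

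Tbxas1 (NM_011539.3), thromboxane synthase, competes for the same prostaglandin H2 and did not separate the ages. In experiment 1 it had 2.40, 3.47 and 5.08 CPM in aged and 2.63, 3.57 and 2.10 CPM in young libraries. In experiment 2 it had 2.27, 2.19, 3.33 and 0.417 CPM in aged and 5.03, 1.85, 3.81 and 2.14 CPM in young libraries. The lowest value was again aged 2.4, with 4 reads, and 3 of 7 aged libraries lay above the young mean. The log2 difference was −0.19 (SE 0.418, 95% interval −1.09 to 0.71), with 0.40 in experiment 1 and −0.64 in experiment 2. That interval spans 0.471-fold to 1.63-fold.

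Ratios of reads within a library do not depend on how libraries are scaled. Ptgis had 0.0204 to 0.0812 reads per Ptgs1 read in aged libraries (median 0.0433) and 0.00124 to 0.00953 in young ones (median 0.00467), with no overlap. Per Tbxas1 read it had 1.75 to 27.3 reads in aged libraries (median 8.05) and 0.164 to 1.83 in young ones (median 0.815). In that ratio aged 1.3, at 1.75, lay just under young 2.4, at 1.83, so the ages overlapped by this pair. These ratios compare amplicon reads between libraries and say nothing of the ratio of the enzymes or their products. Both hold the Ptgis reads that brought the gene forward, so nothing is read from the lack of overlap per Ptgs1 read. In experiment 2 the log2 age difference of Ptgs1 itself was −0.54 (SE 0.190), which widens that gap.

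**Figure D3:**
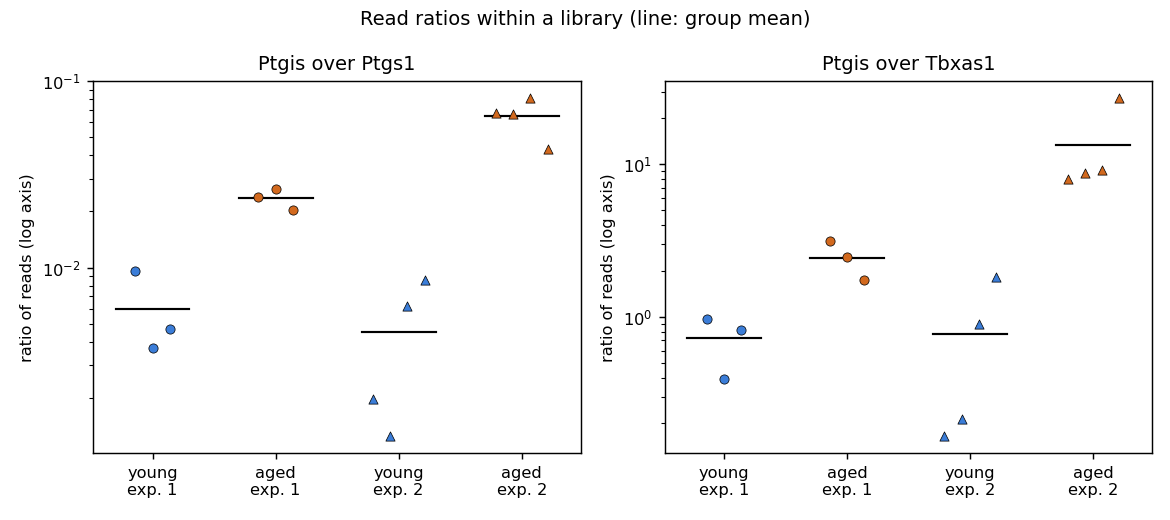
Reads on Ptgis per read on Ptgs1 (left) and per read on Tbxas1 (right) in each library, on log axes, by age and experiment; lines are group means. Per Ptgs1 read the 7 aged libraries lie between 0.0204 and 0.0812, above all young ones, and per Tbxas1 read 1 aged library falls under the highest young one.

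The prostaglandin E2 synthase genes of the set gave little. Ptges (NM_022415.3), the inducible microsomal enzyme, had 0 to 3 reads in every library, 5 in all aged and 4 in all young libraries, so no library exceeded the floor of 3 reads and no fold is given. That floor covers counting error only.

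Ptgir (NM_008967.3), the prostacyclin receptor, had 1 to 41 reads a library. In experiment 1 it had 0.155, 0.0913 and 1.21 CPM in aged and 0.439, 0.349 and 0.389 CPM in young libraries. In experiment 2 it had 3.17, 2.65, 1.03 and 0.625 CPM in aged and 3.08, 0.132, 1.36 and 0.119 CPM in young libraries. The ages overlapped throughout, and the highest values of both ages were in aged 2.1 and young 2.1. In a fit without the filter the log2 difference was 0.46 (SE 0.716, edgeR adjusted p = 1), so no difference in the prostacyclin receptor was detectable at this depth.

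Ptger4 (NM_001136079.2), which encodes the prostaglandin E2 receptor EP4, varied more between libraries than between ages. In experiment 1 it had 0.620, 1.28 and 12.6 CPM in aged and 1.10, 0.784 and 0.467 CPM in young libraries. In experiment 2 it had 7.70, 7.83, 1.27 and 0.208 CPM in aged and 8.93, 3.44, 2.18 and 1.31 CPM in young libraries. Aged 1.3, young 2.1, aged 2.2 and aged 2.1 stood apart from the rest. The log2 difference was 1.11 (SE 0.891, 95% interval −0.80 to 3.02) over both experiments and 2.61 (SE 1.29) in experiment 1, where 1 library carried it: without aged 1.3 these values were 0.15 and 0.27. The same 4 libraries were the 4 highest in summed B cell markers (Cd79b, Ms4a1, Cd22, Pax5), at 175, 49.7, 208 and 107 CPM, while no other library exceeded 10.1 CPM. Aged 1.3 was also the highest library in T and NK cell (387 CPM), hepatocyte (3729 CPM) and Kupffer cell and macrophage sums (295 CPM). The B cell list was set beside Ptger4 after the values were seen, and the part of any of these cells in Ptger4 was not tested.

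**Figure D4:**
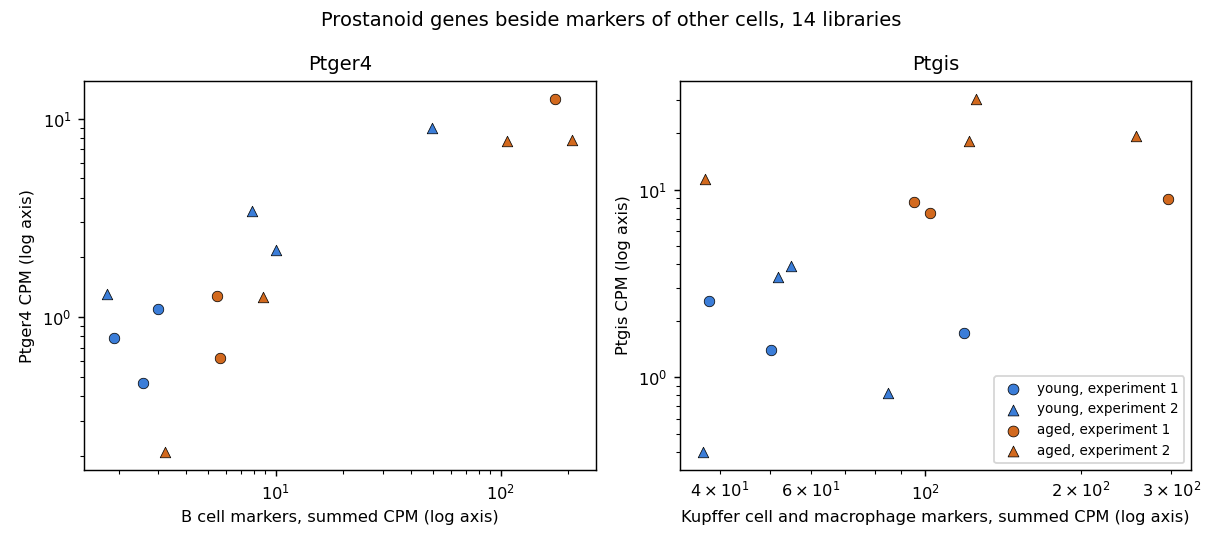
Left, Ptger4 CPM against summed B cell marker CPM; right, Ptgis CPM against summed Kupffer cell and macrophage marker CPM, both on log axes, with 1 point per library coloured by age and shaped by experiment. The 4 libraries highest in Ptger4 are the 4 highest in B cell markers, and the Ptgis panel covers marker sums of 37.2 to 295 CPM.

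Hpgd (NM_008278.2), which encodes the 15-hydroxyprostaglandin dehydrogenase that inactivates prostaglandins, was read deeply and did not separate the ages. In experiment 1 it had 246, 297 and 422 CPM in aged and 132, 304 and 389 CPM in young libraries. In experiment 2 it had 198, 274, 224 and 330 CPM in aged and 260, 292, 454 and 112 CPM in young libraries. Young 2.4 and young 1.1 were the lowest and young 2.3 the highest, so the young range enclosed the aged one. The means were 284 ± 75.1 CPM aged and 277 ± 125 CPM young (SD, n = 7 each), a log2 difference of 0.03 (SE 0.287, 95% interval −0.59 to 0.64). That interval spans 0.665-fold to 1.56-fold.

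Markers of other cells were set beside these genes. Of the 12 Kupffer cell and macrophage markers, 8 were tested and all 8 were above 0 on the log2 scale (median 1.71), with none called. Their sum was 37.5 to 295 CPM in aged libraries (median 121) and 37.2 to 119 CPM in young ones (median 52.0), and C1qa was at 0 or 1 read in every library. The part of these cells in Ptgis was not tested. With the mean marker level as a term in the fit, the log2 difference of Ptgis was 2.44 (SE 0.631) and no longer passed (edgeR adjusted p = 0.769, with 0.0141% of all targets called). Under that term the other values were −0.45 for Ptgs1, −0.46 for Ptgs2, −0.96 for Tbxas1, −1.78 for Ptger4 and 0.01 for Hpgd, so Ptgs2 and Ptger4 took the opposite sign. In the main fit Ptgs2 was 1.07 (SE 0.576) and Ptger4 1.11 (SE 0.891), and neither was called in either fit. The markers ran higher in aged libraries, so the term and age vary together. The part of these cells in Ptgs2 or Ptger4 was not tested.

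For the remaining lists no marker was called between ages, and the part of these cells in any result was not tested. Platelet markers, of which 5 were tested, had a median log2 difference of 0.01 and sums of 29.4 to 94.2 CPM aged and 24.9 to 77.5 CPM young. Stellate cell and fibroblast markers (4 of 6 above 0, median 0.11) had medians of −1.22 in experiment 1 and 1.06 in experiment 2. In experiment 1 they summed to 37.3, 27.2 and 43.7 CPM aged and 67.4, 91.3 and 54.5 CPM young, so the aged sums lay under the young ones. In experiment 2 they summed to 123, 156, 432 and 153 CPM aged and 62.3, 38.0, 230 and 130 CPM young. Aged 2.3 was the highest library in Ptgis, in this sum and in the monocyte and neutrophil sum (1533.5 CPM, next aged 2.2 at 694 CPM). The part of any of these cells in Ptgis was not tested. Large-vessel and capillary endothelial markers (3 of 7 above 0, median −0.05) summed to 841 to 2227 CPM aged and 891 to 2391 CPM young. Plvap had the highest mean of this list, 606 CPM aged and 946 CPM young, while Clu had 339 and 112 CPM. B cell markers (4 of 4 above 0, median 3.24) had medians of 5.07 in experiment 1 and 2.15 in experiment 2, and monocyte and neutrophil markers (4 of 4, 2.04) had 2.004 and 2.31. T and NK cell markers (4 of 5, 0.89) had medians of 2.53 and 0.05, and hepatocyte markers (4 of 5, 0.77) had 2.13 and −0.12. In experiment 1 the hepatocyte sums were 376, 416 and 3729 CPM aged and 694, 546 and 305 CPM young, so aged 1.3 alone lay above the young libraries. The single tested smooth muscle and mesothelium markers had log2 differences of 0.38 and 0.29.

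The targets whose pattern was most like that of Ptgis were found by Pearson's r in log2 CPM over the 14 libraries, after the mean of each age-by-experiment group was subtracted. Among 11745 targets with a mean of at least 5 CPM, these were Pip5k1a (r = 0.94), a phosphatidylinositol phosphate kinase, Dnajb5 (0.94), a co-chaperone, Usp12 (0.94), a deubiquitinase, Upf2 (0.94), of nonsense-mediated decay, and Parg (0.93), which removes poly(ADP-ribose). All targets share each library's depth and its share of receptor-target reads, and the median r over all was 0.27. Ptgis had only 3 to 35 reads in the young libraries, fewest in young 2.2, so its r values also carry counting error. The likeness holds within groups only: their log2 age differences lay between −0.30 and −0.16, against 2.75 for Ptgis. By this measure Ptgs1 had r = 0.59 with Ptgis and Hpgd had −0.33. The choice of measure changed the names: without the subtraction 0 of these 5 remained among the 5 most alike (then C2, Atp6v0e2, Plscr1, Tmem63c and Fuca2), and by Spearman's rho 2 did (Upf2 and Dnajb5).

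The rest of the eicosanoid pathway was taken from a list of 58 other genes, of which 52 were matched and 38 tested. None of the 38 passed the test between ages. At an unadjusted edgeR p under 0.05 there were 5 of 38, against 959 of all 14168 tested targets (6.77%), a smaller share. Of the 38, 25 were above and 13 below 0, with a median log2 difference of 0.10, against −0.00 over all targets. DESeq2 called 2 (Plaat3 and Pla2g7), and limma-voom called 0.

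The list for arachidonate release (11 tested, median 0.10) also held genes that return it to lipids (Acsl4, Lpcat3, Mboat7) or restrain its release (Anxa1). Plaat3 (NM_139269.2), a phospholipase and acyltransferase, had 30.7 to 59.8 CPM in aged libraries (median 39.8) and 12.8 to 35.2 CPM in young ones (median 16.6). Only young 1.3, at 35.2 CPM, reached the aged range, and the log2 difference was 1.04 (SE 0.234, edgeR adjusted p = 0.175). Pla2g7 (NM_013737.5), on the same list, is the platelet-activating factor acetylhydrolase, which acts on that lipid, circulates with lipoproteins and is made by macrophages. It had 23.4 to 113 CPM aged (median 35.6) and 12.4 to 38.3 CPM young (median 21.4). Its log2 difference was 1.01 (SE 0.252, adjusted p = 0.288), and 0.39 with the macrophage term. The part of macrophages in Pla2g7 was not tested.

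Other genes listed as terminal synthases (5 tested, median 0.09) were read from 1.83 CPM for Prxl2b, a prostamide and prostaglandin F synthase, to 526 CPM for Akr1b8. Akr1b8 is an aldo-keto reductase listed with its family, and its reads do not show that it makes a prostanoid. Akr1b8 had 525 ± 64.5 CPM aged and 526 ± 103 CPM young (SD, n = 7 each), a log2 difference of −0.01. Cbr1, a carbonyl reductase that acts on prostaglandin E2, had 24.0 and 22.8 CPM (log2 0.09), and Ptges2, a second prostaglandin E synthase, had 6.12 and 6.86 CPM (log2 −0.17). The signs for Akr1b8, Cbr1 and Ptges2 turned under at least 1 other setting, to values between −0.26 and 0.07. Ptgds, the lipocalin-type prostaglandin D synthase, had 13.7 ± 12.9 CPM aged and 11.0 ± 6.53 CPM young (log2 0.34), and −0.63 without aged 2.4, which had 39.4 CPM.

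Of the other receptors, Tbxa2r, the thromboxane receptor, was the 1 read above 5 CPM. It had 6.56 to 26.9 CPM aged (median 16.8) and 14.4 to 27.9 CPM young (median 23.5), with 1 of 7 aged libraries above the young mean. The log2 difference was −0.41 (SE 0.270, 95% interval −0.99 to 0.17). Ptgfrn, a regulator of the prostaglandin F receptor, was tested at 2.19 CPM (log2 0.18), while Ptger2, Ptger3, Ptgdr, Ptgdr2 and Ptgfr had at most 13 reads in any library. Ptger1 was not matched to a target.

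Slco2a1, the transporter that takes prostaglandins into cells, had the most reads of the whole pathway, and it is named for that level, chosen after its values were seen. It had 899 to 2195 CPM aged (median 1149) and 838 to 2405 CPM young (median 1521), and the log2 difference was −0.28 (SE 0.168, 95% interval −0.65 to 0.08). The 5 tested genes of transport and breakdown had a median of −0.16, between −0.39 and 0.06.

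The neighbouring branches were also without a call. Alox5ap, which presents arachidonate to 5-lipoxygenase and is a myeloid gene, had 1.70 to 37.0 CPM aged and 0.585 to 13.4 CPM young. Its log2 difference was 2.26 (SE 0.861, edgeR adjusted p = 0.643), and −0.35 with the macrophage term. The 8 tested macrophage markers also ran higher in aged libraries (median log2 1.71), so that term and age vary together. The part of macrophages in Alox5ap was not tested. The 7 tested leukotriene and lipoxygenase genes had a median of 0.13. Of the 5 epoxygenase-branch genes (median 0.42) 4 were above 0, among them Cyp4f13, a fatty acid hydroxylase, with 39.6 ± 6.10 CPM aged and 28.4 ± 3.61 CPM young (SD, n = 7 each; log2 0.48, SE 0.132, adjusted p = 0.408). The 3 nuclear receptors of prostanoids, Ppara, Ppard and Pparg, had a median of 0.11.

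**Figure D5:**
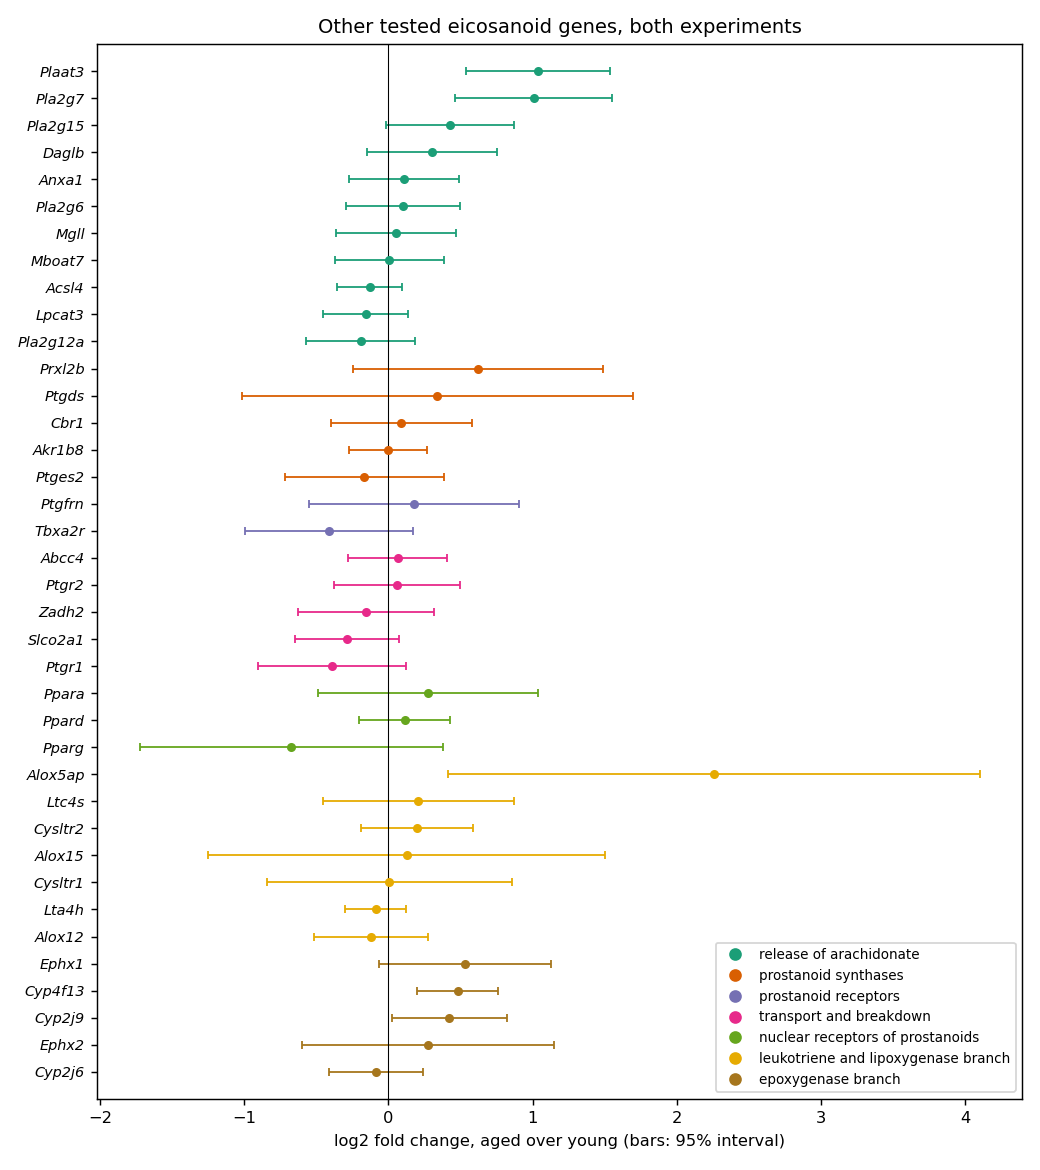
Log2 fold change, aged over young over both experiments (horizontal axis), of the 38 other tested eicosanoid genes, coloured by listed role. Points are edgeR estimates and bars 95% intervals before adjustment. Most intervals include 0; Plaat3, Pla2g7, Alox5ap, Cyp4f13 and Cyp2j9 lie above it, and none passed after adjustment.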

How the data were processed

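The deposited values are raw read counts per RefSeq target of the Ion AmpliSeq mouse transcriptome panel, with 1 file per library. RNA was extracted with TRIzol LS, per the labels' protocols. HTSeq 0.6.0 and DESeq2 1.18.1 are named by the submitters' processing notes. The sources used here do not give the aligner, genome build, strand setting or treatment of shared reads. The 5 bookkeeping entries per file (1.24 to 3.04% of reads) were left out. Targets were named from the RefSeq table of GRCm38.p6 (18128 with version, 4324 without) or GENCODE (110), and 1368 stayed unmatched.

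Counts were tested in R 4.3.3 with edgeR 4.0.16 (quasi-likelihood F test, TMM scaling, filterByExpr by age with a minimum count of 10, experiment as a term), with Benjamini-Hochberg adjustment over 14168 targets and calls under 0.05. A model of 4 means gave the values within experiments and their difference. SEs come from the F statistic. Log2 CPM used a prior count of 2. Steps were tested on simulated data. Alternatives included DESeq2 1.42.0 and limma 3.58.1 (voom), other scaling and filters, added terms and left-out libraries. The genes and lists, and the rule for naming others (receptors and synthases of at least 5 CPM, then the 4 smallest p), were chosen with earlier results of these data known. Markers of 11 cell types came from fixed lists, of which 1 gene is not reported here and was left out.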

Additional observations from a re-analysis of the deposited data

Results flagged for a closer look

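Each age group of 7 libraries was screened for a single library far from the others, over 38 combinations of gene and age, and 5 were flagged. The cut-off flags about 1 in 20 by chance where values are normally spread. It was used on CPM without logs, and chance can flag more where values are skewed or rest on few reads. Ptger4 in young 2.1 had 8.93 CPM, against 3.44 CPM in the next young library, and Ptgir in the same library had 3.08 CPM, against 1.36 CPM. Young 2.1 was also the young library highest in B cell markers (49.7 CPM). It lay above the young median in T and NK cell sums (79.4 against 22.0 CPM) and Kupffer cell and macrophage sums (84.7 against 52.0 CPM). The part of these cells was not tested. Ptgds in aged 2.4 had 39.4 CPM, against 17.6 CPM in the next aged library, and Ptges2 in aged 2.4 was the lowest at 2.92 CPM, against 5.81 CPM. Aged 2.4 was 1 of the 2 libraries of experiment 2 with a high share of receptor-target reads (2.81%). Ptges in aged 1.3 had 0.242 CPM, against 0.104 CPM, which rests on 3 reads.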

How the results depend on the processing

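The higher Ptgis in aged libraries kept its direction under all 11 alternatives that tested it and all 14 runs without 1 library (log2 2.44 to 3.05 and 2.53 to 2.94). The count of prostanoid genes called between ages, 1, was 0 with at least 10 CPM required in 7 libraries (Ptgis was then not tested), with the replicate block (Ptgis 2.91, adjusted p = 0.145), with the macrophage term and with aged 1.1 and aged 1.2, the most alike pair (r = 0.98), summed (2.82, adjusted p = 0.0742). Without 1 library it was 0 to 1. Over the alternatives its adjusted p ran from 1.10e-07 (DESeq2) to 0.769. Whether libraries with the same replicate number were pairs is not given by their names. Same-numbered ones correlated between −0.38 and 0.78, best with their own number in 3 of 7. So few libraries cannot settle the question, and the fit with the replicate block stands beside the main one.

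For the age difference within experiment 2, from the fit of all 14 libraries, the count, 0, was 1 (Ptgis) under DESeq2 and with the receptor-share term. With each experiment fitted by itself, 0 targets were called in either. Between experiments the count, 1 (Ptgs2), was 0 under RLE scaling, no composition scaling, no filter, the 10 CPM filter, the receptor-share term and the summed pair, 3 without young 2.2 and aged 2.4 (Ptgir, Ptgis, Ptgs2), and 0 to 1 without 1 library. Other eicosanoid genes called, 0, were 2 under DESeq2. The cause was not tested, apart from genes that a filter removed.

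Some signs turned. Ptgs1 between experiments (0.05) was −0.034 under RLE and DESeq2, −0.10 without scaling, −0.048 without a filter, −0.081 at 10 CPM, −0.18 with the receptor-share term and −0.12 to 0.16 without 1 library. With that term Ptgis between experiments (0.72) was −0.28, and the difference of the Ptgs2 age effects −0.036 (−0.23 to 1.68 without 1 library). Between ages, Akr1b8 was 0.062 without scaling, 0.011 under voom and the block and 0.012 with the 10 CPM filter (−0.062 to 0.069 without 1 library). Cbr1 was −0.052 under voom and −0.26 with the macrophage term (−0.047 to 0.19), and Alox5ap (2.26) −0.35 with that term. Ptgds was −0.13 under the block, −0.29 without young 2.2 and aged 2.4, and −0.63 to 0.64 without 1 library, and Ptges2 was 0.040 without that pair.

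Of all targets, 11 were called higher and 12 lower with age. These were 28 and 18 without scaling, 65 and 81 under DESeq2, 28 and 31 with the receptor-share term, 17 and 19 without young 2.2 and aged 2.4, 7 and 5 without the experiment term, 3 and 2 under the block, 1 and 1 with the macrophage term and 3 and 1 with the summed pair. Between experiments 990 were higher and 113 lower, and over the alternatives and left-out libraries these ran from 139 and 28 without young 2.1 to 4002 and 3736 without young 2.2 and aged 2.4. Leaving out scaling moved the median of all targets from 0.04 to 0.17 in experiment 1 and from 0.12 to −0.02 between experiments. Depth limits Ptges, Ptgir, Pla2g4a and, in experiment 1, Ptgs2.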
